A study of Mus musculus with 4 samples.

Results

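*Alx1* and *Alx4* are ALX homeobox genes of the frontonasal mesenchyme, the family whose loss causes frontonasal dysplasia. They were taken by gene symbol from a table that lists 13577 genes, and make up 2 of these. Expression was measured by RNA-Seq of nasal process (NP) tissue from E11.5 mouse embryos, with 2 control and 2 ca-*Acvr1(A11)* mutant libraries made with a QuantSeq kit, which sequences a tag at the 3′ end of each transcript. The libraries held between 1956831 and 2408827 reads. By the study's methods, control embryos were ca-*Acvr1(A11)* +/+;*P0-Cre* and mutant embryos were ca-*Acvr1(A11)* fl/+;*P0-Cre*, somite-matched and of mixed background, so the Cre driver is present in both groups. In line A11 a CAG promoter drives a constitutively activated ACVR1 once Cre has acted. *P0-Cre* acts in the neural crest, so the transgene is switched on in crest-derived cells, whereas the libraries hold RNA of the whole tissue. Nothing in the labels or methods says how many embryos went into a library, and p-values measure the spread between these 4 libraries.

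The titles and the genotype entries of the libraries contradict each other: those titled control carry the genotype ca-Acvr1(A11);P0-Cre, and those titled mutant carry P0-Cre. Groups follow the titles here, and if the genotype entries hold instead, every direction given turns round. *Acvr1*, encoding the activated receptor, was at 21.5 and 23.1 CPM (reads of a gene scaled to library totals, as deposited) in control replicates 1 and 2 and at 24.1 and 12.6 CPM in ca-*Acvr1(A11)* replicates 1 and 2. The groups overlapped, with the first mutant library the highest and the second the lowest of the 4. The log2 fold change, here and throughout taken as ca-*Acvr1(A11)* minus control on log2(CPM + 1), was −0.33 (standard error 0.28, adjusted p = 0.786 by limma). Transcripts of the transgene need not end in the 3′ end of mouse *Acvr1*, so these values do not check the labels. The paper reports lower *Pdgfra* in mutant nasal processes by qRT-PCR, blots and immunostaining. In the libraries titled mutant *Pdgfra* was at 13.2 and 17.9 CPM, against 85.3 and 114 CPM in those titled control. *Pdgfra* is among the genes whose values are not whole reads, described below. The paper also reports raised BMP/Smad signaling in mutant nasal processes. By the titles, the 16 BMP response genes listed further below had a median log2 fold change of −0.40. Of these, 11 were lower and 5 higher, and 0 were called by limma. Whether the titles or the genotype entries hold was not tested.

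ALX proteins are paired-type homeodomain transcription factors of the cranial neural crest mesenchyme that forms the frontonasal and nasal processes, the tissue of the forehead, nose and midline of the upper jaw. They bind DNA through the homeodomain, as homodimers or as dimers with one another, and they act with overlap. In humans, inactivating variants of *ALX1* and *ALX4* underlie forms of frontonasal dysplasia, and in mice combined loss of family members splits the nasal region at the midline.

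The homeobox, the coding stretch for the DNA-binding domain, is printed for *Alx1*, the gene with the larger fold change, because it encodes the part of the protein that defines it as a homeobox factor. The sequence runs 5′ to 3′ on the coding strand, from the GENCODE M21 transcript of build GRCm38 (mm10), and capitals mark the 42 bases that lie in exon 3, which encode the end of the domain with most of the helix that reads DNA.
Alx1: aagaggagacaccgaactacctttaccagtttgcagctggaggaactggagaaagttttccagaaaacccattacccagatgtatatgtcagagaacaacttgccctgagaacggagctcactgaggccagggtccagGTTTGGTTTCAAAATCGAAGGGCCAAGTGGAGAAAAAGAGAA
Of its 180 bases, 138 lie in exon 2 and 42 in exon 3 of 4 exons. On the minus strand, these parts lie at chr10:103025135-103025272 and chr10:103022264-103022305. The homeodomain covers residues 132 to 191 of the 326 residues of the protein.

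QuantSeq tags come from the other end of the gene, the last exon. Within the last 500 bases of the transcript used for each gene, no stretch of 25 bases occurs in both genes. The genes lie on different chromosomes, with *Alx1* at chr10:102998707-103030215 and *Alx4* at chr2:93642384-93681339. The last exon of the transcripts used spans chr10:103007847-103009508 for *Alx1* and chr2:93677232-93681339 for *Alx4*. On its 3′ side the annotated *Alx1* gene runs past the end of this transcript, to position 102998707. Where the tags of *Alx1* lie, and the ends of its other transcripts, were not tested. Whether the counting used strand is not given in the sources used here, and this bears on *Alx4*, since *Ext2*, a heparan sulfate polymerase gene, runs across it on the opposite strand. The exons of *Ext2* and *Alx4* share 0 bases. *Ext2* was at 17.9 and 18.6 CPM in the controls against 14.1 and 16.4 CPM in ca-*Acvr1(A11)* libraries, below *Alx4* in each library, at a log2 fold change of −0.25 with standard error 0.26 (adjusted p = 0.848 by limma). On the *Alx1* strand the noncoding gene *Gm17028* shares 243 exonic bases with the 5′ end of *Alx1* and is not listed in the table.

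*Alx1*, whose loss underlies the most severe form of human frontonasal dysplasia, was above *Alx4* in every library and had the larger fold change. It was at 217 CPM (424 reads) in control replicate 1, 293 CPM (659 reads) in control replicate 2, 113 CPM (272 reads) in ca-*Acvr1(A11)* replicate 1 and 116 CPM (248 reads) in ca-*Acvr1(A11)* replicate 2. Both mutant libraries lay far below both control libraries, the lower control value being 1.87 times the higher mutant value, and the spread within the control pair was wider than that within the mutant pair. Group means were 255 ± 53.7 CPM in the controls against 114 ± 2.21 CPM in ca-*Acvr1(A11)* libraries (SD, n = 2 each). *Alx1* fell by 1.13 on the log2 scale (standard error 0.15, 95% confidence interval −1.45 to −0.81, adjusted p = 8.05e-05 by limma), to 45.7% of the control level.

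*Alx4*, which acts in the frontonasal mesenchyme and also in limb patterning and skull vault formation, was at 80.7 CPM (158 reads) and 93.2 CPM (210 reads) in control replicates 1 and 2 and at 42.8 CPM (103 reads) and 46.8 CPM (100 reads) in ca-*Acvr1(A11)* replicates 1 and 2. The groups did not overlap, and the pairs were close within each group. Group means were 87.0 ± 8.83 CPM in the controls against 44.8 ± 2.85 CPM in ca-*Acvr1(A11)* libraries (SD, n = 2 each). *Alx4* fell by 0.94 on the log2 scale (standard error 0.17, 95% confidence interval −1.30 to −0.58, adjusted p = 0.00391 by limma), to 52.1% of the control level.

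**Figure D1:**
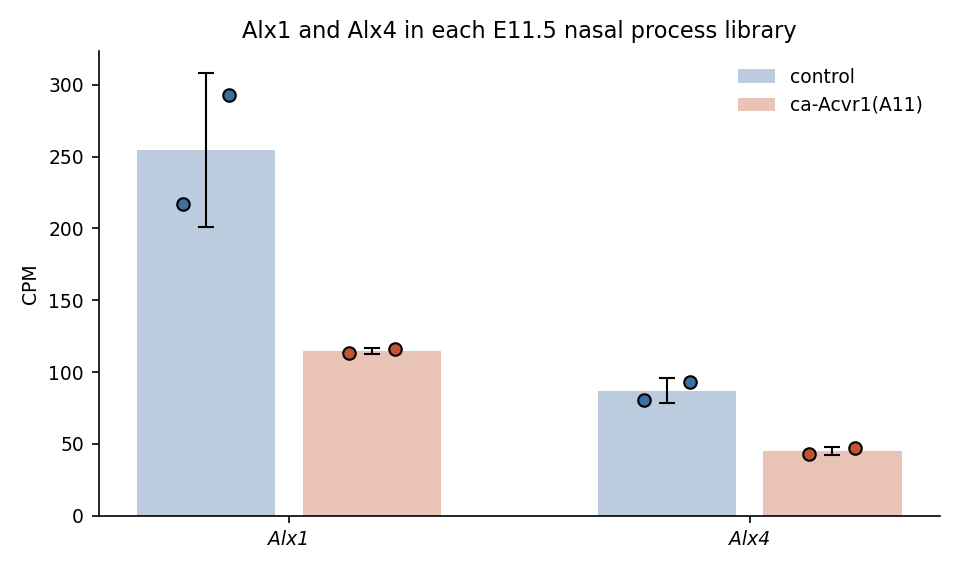
CPM of *Alx1* and *Alx4*, with 1 point for each library, bars for the mean of the 2 control or 2 ca-*Acvr1(A11)* libraries and error bars for the SD. In each gene both mutant points lie below both control points, and the widest pair is that of the controls for *Alx1* (217 and 293 CPM).

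Against the whole table, *Alx1* and *Alx4* were both among the genes called lower at an adjusted p under 0.05 by limma, a call made for 0.594% of the 12462 genes tested, those with a mean above 1 CPM. Calls in the other direction made up 0.305%. This excess of lower calls, 74 against 38 higher, was not kept without control replicate 1 (225 lower and 240 higher) or without control replicate 2 (54 lower and 60 higher). At an unadjusted p under 0.05 by limma the shares of all genes tested were 4.12% lower and 5.42% higher, or 9.55% together. Separation of the groups is a much weaker criterion: both ca-*Acvr1(A11)* libraries lay below both control libraries in 16.8% of genes tested and above both in 21.9%, so a clean split of the groups is common with 2 libraries a group. Of the genes tested, 0.610% had a lower log2 fold change than *Alx1* and 1.29% a lower one than *Alx4*, and by p-value the genes stood at places 8 and 27 of the 5710 genes with a negative fold change. Over all genes tested the median log2 fold change was 0.03.

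**Figure D2:**
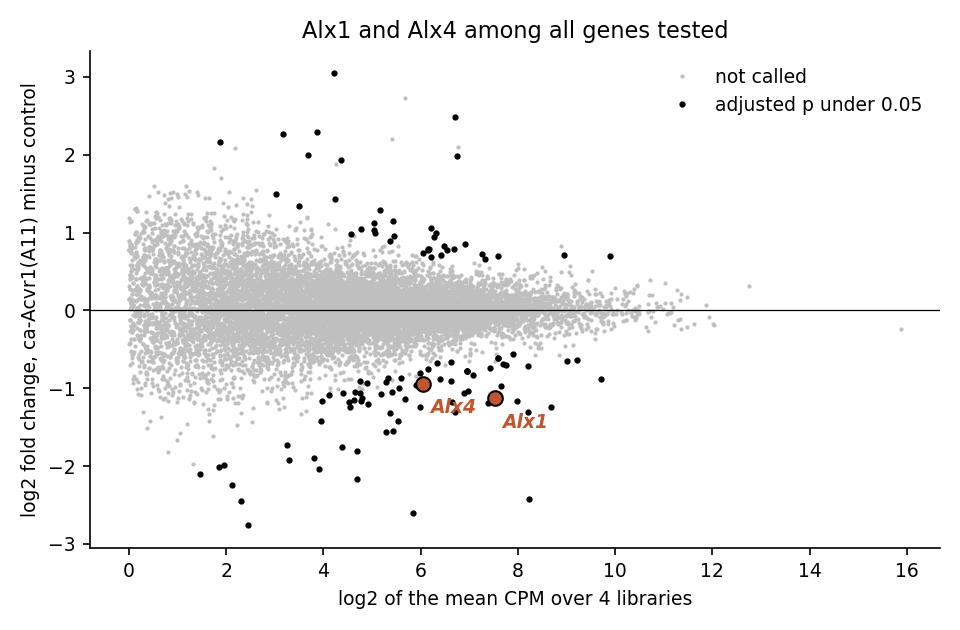
Log2 fold change (ca-*Acvr1(A11)* minus control, on log2(CPM + 1)) of each of the 12462 genes tested, against the log2 of its mean CPM over the 4 libraries. Black points have an adjusted p under 0.05 by limma; *Alx1* and *Alx4*, in orange, lie on the lower edge of the cloud at −1.13 and −0.94.

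The CPM of the 2 genes were set side by side, because a 3′ tag is counted per transcript end and does not grow with transcript length. Other differences between the genes in how their 3′ ends are counted were not tested. *Alx1* was above *Alx4* in both groups, with no overlap between their values. Among all 13577 genes listed, *Alx1* ranked 884 and 576 by CPM in the control libraries and 1913 and 1862 in the mutant libraries, where rank 1 is the highest level. *Alx4* ranked 2675 and 2324 in control and 4395 and 4171 in mutant libraries.

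*Alx1* and *Alx4* summed to 297 and 386 CPM in the controls against 156 and 163 CPM in ca-*Acvr1(A11)* libraries. The mutant sum was 0.470 times the control sum (log2 difference −1.09, exact permutation test, two-sided p = 0.333, the smallest that 2 libraries against 2 can give). For each read of *Alx1* there were 0.373 and 0.319 reads of *Alx4* in control and 0.379 and 0.403 in mutant libraries. The groups did not overlap in this ratio, at a log2 difference of 0.18. The gap between control replicate 1 and ca-*Acvr1(A11)* replicate 1 was small beside the spread within control, so a different change of the 2 genes was not shown. The exact permutation test (two-sided p = 0.333) cannot decide this, since it can give no smaller p with these libraries.

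The ALX genes were next set beside general mesenchyme genes, because a lower ALX share of a library can come from fewer mesenchymal cells in the tissue or from less ALX RNA in each, and bulk libraries cannot tell these apart. Of 18 mesenchyme markers 17 were tested, and 10 were lower in mutants and 0 higher by limma. Of all genes tested, 0.594% were called lower and 0.305% higher. Without the genes whose values are not whole reads 8 of 15 markers were lower. The median log2 fold change of the markers was −0.83, and −0.62 without control replicate 2, where fewer were called. *Postn* is not listed, and *Pdgfra* and *Pdgfrb* hold values that are not whole reads and were left out of sums. The other 15 summed to 2789.7 and 3189.7 CPM in the controls against 2271 and 2366 CPM in ca-*Acvr1(A11)* libraries, lower in both mutants. The most abundant, the intermediate filament gene *Vim*, stood at 0.23 on the log2 scale (standard error 0.13, adjusted p = 0.646 by limma), while the collagen genes *Col1a2* (−1.25, adjusted p = 1.75e-06 by limma) and *Col3a1* (−0.71, adjusted p = 0.0271 by limma) and the cadherin gene *Cdh11* (−0.83, adjusted p = 0.00687 by limma) fell. *Col3a1* lost its call without control replicate 2 (adjusted p = 0.268 by limma), without ca-*Acvr1(A11)* replicate 1 (0.333), with a pseudocount of 0.1 (0.0539) and with a filter at 10 CPM (0.0625), and *Cdh11* without control replicate 2 (0.0614) or ca-*Acvr1(A11)* replicate 2 (0.0886). The others called were *Prrx1*, *Prrx2*, *Twist1*, *Pdgfra*, *Pdgfrb* (−1.55, adjusted p = 1.06e-04 by limma), *Twist2* (−1.04, adjusted p = 0.00554 by limma) and *Col1a1* (−1.17, adjusted p = 0.0171 by limma). *Twist2* lost its call without ca-*Acvr1(A11)* replicate 1 (adjusted p = 0.0656 by limma), and *Col1a1* without that library (0.177) or control replicate 2 (0.0799). DESeq2 called 6 of the 17 markers lower.

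Relative to the summed CPM of these 15 mesenchyme markers, of which they are not members, the sum of *Alx1* and *Alx4* came to 10.7% and 12.1% in the controls and to 6.86% and 6.88% in ca-*Acvr1(A11)* libraries. The groups stayed apart, at a log2 difference of −0.73 in place of −1.09 (exact permutation test, two-sided p = 0.333). That difference depends on the markers summed. Of the 15, 10 had a negative log2 fold change, but *Vim*, the most abundant, did not fall. It made up 760 CPM (control replicate 1), 768 CPM (control replicate 2), 924 CPM (mutant replicate 1) and 867 CPM (mutant replicate 2) of the sums. A sum without the markers that did not fall was not tested. Against single mesenchymal genes the ratios differed from gene to gene. Against *Prrx1*, a paired-related homeobox gene of limb and facial mesenchyme, *Alx1* was at ratios of 0.966 and 1.21 in control and 1.19 and 1.07 in mutant libraries, which overlapped, and *Alx4* at 0.360 and 0.387 in control and 0.452 and 0.433 in mutant libraries, higher in both mutants. Against *Prrx2*, *Alx1* was at 3.69 and 3.81 in control and 4.77 and 4.59 in mutant libraries, and *Alx4* at 1.37 and 1.21 in control and 1.81 and 1.85 in mutant libraries, higher in both mutants. Against *Twist1*, a bHLH factor of the cranial mesenchyme, *Alx1* was at 1.91 and 1.43 in control and 1.26 and 1.33 in mutant libraries, lower in both, and *Alx4* at 0.712 and 0.455 in control and 0.477 and 0.535 in mutant libraries, which overlapped. Relative to these genes the ALX levels were therefore lower, overlapping or higher in mutants according to the gene chosen, and an exact test of any such ratio cannot go below p = 0.333 with 2 libraries a group.

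Other cell types of the nasal process were followed by marker lists, and markers of mesenchyme, epithelium and olfactory tissue, which make up the nasal process, were present in every library. Of 14 markers tested of epithelium, which lines the nasal pits and the facial surface, 3 rose and 0 fell by limma (median log2 fold change 0.51). Of all genes tested, 0.305% were called higher and 0.594% lower. The listed epithelial markers summed to 307 and 287 CPM in the controls against 474 and 447 CPM in ca-*Acvr1(A11)* libraries. The most abundant was *Cdh1*, encoding E-cadherin (0.78, adjusted p = 0.0145 by limma), followed in the called set by *Epcam* (0.72, adjusted p = 0.0264 by limma) and *Perp* (0.99, adjusted p = 0.0172 by limma); *Esrp2* is not listed. All 3 calls were lost without ca-*Acvr1(A11)* replicate 1 (adjusted p = 0.103, 0.203 and 0.104 by limma), those of *Cdh1* and *Perp* without control replicate 2 (0.0955 and 0.0870), and those of *Epcam* and *Perp* without ca-*Acvr1(A11)* replicate 2 (0.0841 and 0.0518). DESeq2 called 0 of the 14. What part the higher epithelial sums have in the lower ALX levels was not tested.

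Of 15 olfactory and neural markers 0 were called by limma or DESeq2, and 1 was called higher with the replicate number as a block. At an unadjusted p under 0.05 by limma there were 8 of the 15, against 9.55% of all genes tested. Of these 8, 7 were higher and *Gap43* lower (−0.54, adjusted p = 0.432 by limma). The median log2 fold change was 0.26, and 0.29 without control replicate 1, where there were calls in both directions by limma. The markers summed to 1936 and 1826 CPM in the controls against 2360.1 and 2355 CPM in ca-*Acvr1(A11)* libraries. Their most abundant gene was *Sox2*, a factor of the olfactory placode and neural progenitors, at a log2 difference of 0.50 (adjusted p = 0.0803 by limma). Macrophage markers summed to 42.9 and 44.4 CPM in the controls against 71.8 and 104 CPM in mutant libraries, with *Fcgr1* and *Lyz2* not listed. Of 7 tested, 2 were called higher, against 0.305% of all genes tested. These were *Cx3cr1*, the most abundant (1.04, adjusted p = 0.0143 by limma), and *Mrc1* (1.34, adjusted p = 0.0411 by limma). *Cx3cr1* lost its call without ca-*Acvr1(A11)* replicate 2 (adjusted p = 0.257 by limma), and *Mrc1* without control replicate 1 (0.0801), ca-*Acvr1(A11)* replicate 1 (0.0736) or ca-*Acvr1(A11)* replicate 2 (0.307), and also with a pseudocount of 0.1, a filter at 10 CPM or limma-voom, so that it kept its call in 10 of 17 alternatives. DESeq2 called 0 of the 7 macrophage markers. The part of these lists in the ALX result was likewise not tested.

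The remaining lists had 0 calls by limma and by DESeq2, and at an unadjusted p under 0.05 by limma they held 2 crest and glia genes and 0 genes of the other lists. The 2 were *Sox10* (−1.44, adjusted p = 0.0926 by limma) and *Foxd3* (−1.61, adjusted p = 0.178 by limma), transcription factors of the neural crest, lower in both mutants at few reads. Both were called lower with the replicate number as a block, and without control replicate 1 *Foxd3* and the erythroid gene *Hbb-bh1* were called lower by limma. Crest and glia markers summed to 110.4 and 148 CPM in the controls against 113 and 152 CPM in ca-*Acvr1(A11)* libraries, most of it *Fabp7*, so that the sum does not show *Sox10* and *Foxd3*, and with *Erbb3* not listed. Endothelial markers, led by *Kdr*, summed to 199.8 and 209.5 CPM in the controls against 206 and 197 CPM in mutant libraries. Erythroid markers, led by *Hbb-y*, summed to 7028 and 8483 CPM in the controls against 6710.3 and 7213 CPM in mutant libraries, with *Hba-a1*, *Hba-a2*, *Hbb-bt* and *Hbb-bs* not listed. Muscle markers were near the lower limit, at sums between 8.69 and 11.2 CPM in the 4 libraries, led by *Tnnt1*, and *Myod1*, *Myog*, *Tnnt2*, *Mylpf* and *Acta1* are not listed. The first 3 of these lists overlapped between the groups, and the muscle sums were slightly higher in both mutants.

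**Figure D3:**
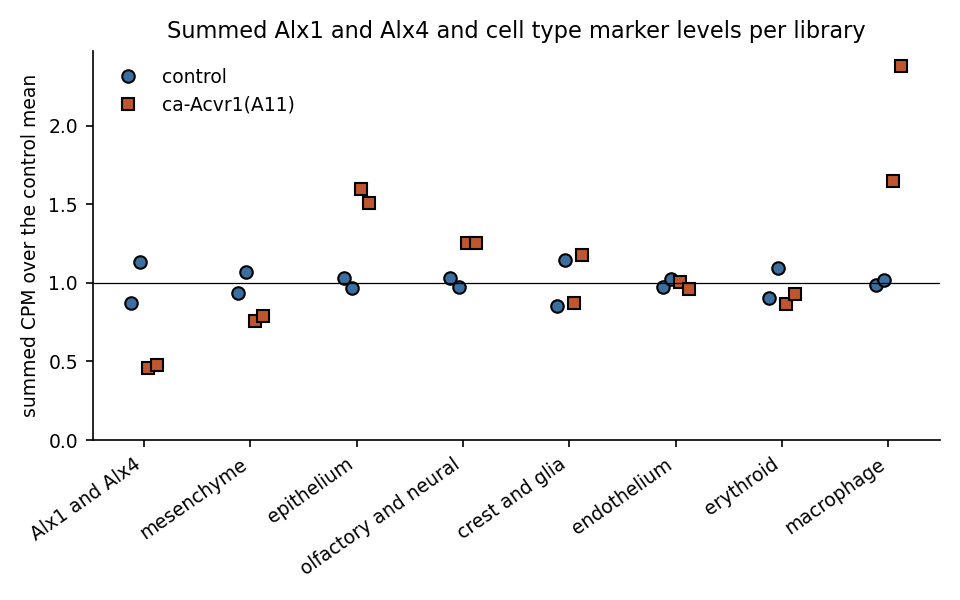
Summed CPM of *Alx1* and *Alx4* and of 7 cell type marker lists in each library, divided by the mean of the 2 control libraries (line at 1); genes whose values are not whole reads are left out. The ALX and mesenchyme sums are below control in both ca-*Acvr1(A11)* libraries, the epithelial, olfactory and neural, and macrophage sums above it, and the crest and glia, endothelial and erythroid sums overlap.

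To see which genes had the most similar profile, the log2(CPM + 1) values of each gene were centred on their mean over the 4 libraries, and the Euclidean distance to *Alx1* or *Alx4* was taken for the 8353 other genes with a mean of at least 10 CPM. Nearest to *Alx1* were *Tmem119* (distance 0.07), *Sh3gl3* (0.14), *Runx1t1* (0.17), *Ebf1* (0.18) and *Col13a1* (0.20). Nearest to *Alx4* were *Col13a1* (0.09), *Emp1* (0.11), *Runx1t1* (0.11), *Crabp1* (0.11) and *Pla2g16* (0.12). *Runx1t1*, a transcriptional corepressor, and *Col13a1*, a transmembrane collagen, were near both. *Alx4* was number 13 from *Alx1* and *Alx1* number 23 from *Alx4*, at a distance of 0.26. With 4 libraries, such a ranking describes these libraries alone.

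These neighbours were picked because their values resemble those of *Alx1* or *Alx4*, so their falls follow from the choice and are no further evidence. Of them, *Crabp1*, a retinoic acid binding protein gene of the cranial neural crest, was the most abundant, at 1026 and 1129 CPM in the controls against 538 and 635 CPM in ca-*Acvr1(A11)* libraries. It fell by 0.88 on the log2 scale (standard error 0.14, adjusted p = 0.000517 by limma). *Runx1t1* was at 237 and 297 CPM in the controls against 132 and 137 CPM in mutant libraries and fell by 0.97 (adjusted p = 0.000314 by limma). *Tmem119*, a membrane protein gene known from osteoblasts and microglia, was at 31.7 and 45.3 CPM in the controls against 16.2 and 16.4 CPM in mutant libraries (−1.17, adjusted p = 0.0100 by limma). *Emp1*, a membrane protein gene, fell by 0.91 (adjusted p = 0.0497 by limma), and *Pla2g16*, a phospholipase gene, by 0.86 (adjusted p = 0.0205 by limma). *Sh3gl3* and *Col13a1* had similar fold changes, −1.03 and −0.97, at 6.55 to 19.5 CPM, and were not called (adjusted p = 0.192 and 0.179 by limma). Without control replicate 2, *Tmem119*, *Ebf1*, *Emp1* and *Pla2g16* lost their calls (adjusted p = 0.155, 0.195, 0.167 and 0.200 by limma), *Emp1* and *Pla2g16* lost theirs without ca-*Acvr1(A11)* replicate 1 (0.190 and 0.113) and *Emp1* without ca-*Acvr1(A11)* replicate 2 (0.0992). The call of *Emp1* was also lost with either other pseudocount, a filter at 10 CPM, limma-voom, DESeq2 or without the genes whose values are not whole reads, and was kept in 8 of 17 alternatives.

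The nearest protein-coding genes that lie to either side of *Alx1* and *Alx4* without overlapping them, so far as they are listed, were not called, nor was *Ext2*, which overlaps *Alx4* and is given above. Around *Alx1*, *Lrriq1* lies 15.8 kb away and *Slc6a15* 338 kb away on one side, and *Rassf9* 449 kb and *Nts* 508 kb on the other. Their log2 fold changes were −0.23, 0.05, −0.19 and −0.32 at 3 to 26 reads a library, and 0 of the 4 were called by limma. Around *Alx4*, *Accs* (152 kb) and *Cd82* (179 kb) were at 0.444 to 5.81 CPM with log2 fold changes of 0.33 and 0.69, not called by limma, and *Gm10803* and *Accsl* are not listed. These are low levels, and the precision is limited. The 95% confidence interval of *Nts*, from −1.29 to 0.65, includes a fold change of the size of *Alx1*. That of *Lrriq1* ran from −0.97 to 0.51. The interval of *Accs*, from −0.58 to 1.25, does not reach the fold change of *Alx4*. For *Cd82*, from −0.43 to 1.81, the comparison decides nothing. With 2 and 1 reads in the controls, it could not show a fall of that size on log2(CPM + 1).

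Beyond the ALX genes, 29 other homeobox genes of the paired-related class were considered, the genes whose homeodomains are most like those of ALX. Of these 16 are listed and 15 were tested, and 4 fell and 2 rose by limma, with a median log2 fold change of −0.47. Over all genes tested 0.594% were called lower and 0.305% higher. The 4 that fell were *Prrx1* (224 and 241 CPM in control, 94.7 and 108 CPM in ca-*Acvr1(A11)* libraries, or −1.19 on the log2 scale, adjusted p = 1.50e-05 by limma), *Prrx2* (−1.42, adjusted p = 1.36e-04 by limma), *Pax3*, a factor of the neural crest and the medial nasal region (−1.14, adjusted p = 8.27e-04 by limma), and *Gsc*, encoding goosecoid (−2.25, adjusted p = 0.00810 by limma). *Gsc* rests on few reads, at 7.15 and 8.43 CPM in the controls against 0.415 and 1.40 CPM in mutant libraries.

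The pair that rose is best known from other tissues. *Otx2*, of the forebrain and the anterior neural and placodal ectoderm, was at 168 and 127 CPM in the controls against 252 and 224 CPM in ca-*Acvr1(A11)* libraries (0.70, adjusted p = 0.0164 by limma), and it was the most abundant of the class. *Pitx1*, of the oral ectoderm and the mandibular arch, was at 17.9 and 17.3 CPM in the controls against 40.3 and 34.6 CPM in mutant libraries (1.04, adjusted p = 0.0171 by limma). *Pax7*, a close paralog of *Pax3*, was at 26.1 and 36.8 CPM in the controls against 21.6 and 22.0 CPM in mutant libraries and was not called (−0.49, adjusted p = 0.512 by limma). The calls of *Prrx1*, *Prrx2* and *Pax3* held in each of 17 alternatives, and these were the 3 that DESeq2 called. *Otx2* and *Gsc* lost theirs without control replicate 2 (adjusted p = 0.114 and 0.0615 by limma), and *Otx2*, *Gsc* and *Pitx1* without ca-*Acvr1(A11)* replicate 1 (0.170, 0.0545 and 0.182).

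**Figure D4:**
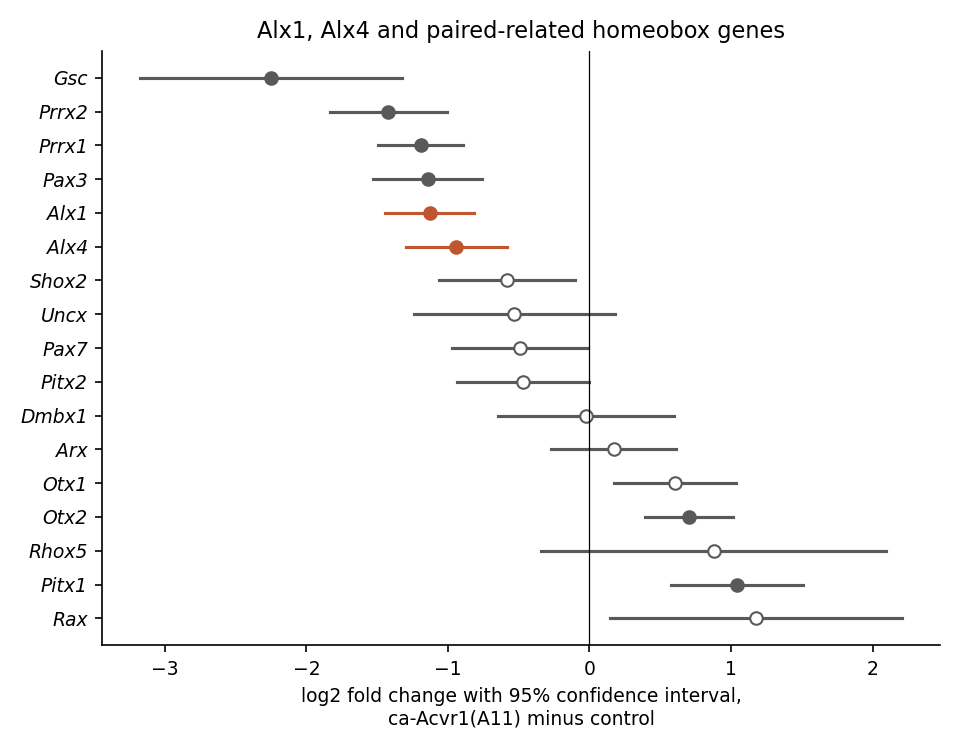
Log2 fold change (ca-*Acvr1(A11)* minus control, on log2(CPM + 1)) with its 95% confidence interval for *Alx1* and *Alx4* (orange) and the 15 other paired-related homeobox genes tested (grey); filled points have an adjusted p under 0.05 by limma. *Alx1* and *Alx4* lie with *Pax3*, *Prrx1*, *Prrx2* and *Gsc* on the lower side, and *Otx2* and *Pitx1* are called on the upper side.

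Transcription factors of the frontonasal mesenchyme, in which the ALX genes act, formed the next list. All 29 were tested, and 8 fell and 0 rose by limma, with a median log2 fold change of −0.45. Without control replicate 1 there were 13 lower and 1 higher, and without control replicate 2 or ca-*Acvr1(A11)* replicate 1 there were 5 lower. Their summed level was 4431 and 4469.5 CPM in the controls against 3308 and 3534 CPM in ca-*Acvr1(A11)* libraries. The largest fall was that of *Snai2*, a zinc finger factor of migrating crest and mesenchyme (−1.32, adjusted p = 6.87e-04 by limma), followed by *Pax3*, *Foxp2* (−1.04, adjusted p = 8.09e-04 by limma), *Ebf1* (−0.999, adjusted p = 0.0102 by limma), *Foxc2* (−0.93, adjusted p = 0.0497 by limma), *Six2* (−0.90, adjusted p = 0.00476 by limma), *Foxc1* (−0.75, adjusted p = 0.00608 by limma) and the nuclear receptor gene *Nr2f1* (−0.64, adjusted p = 0.0214 by limma). *Alx1* and *Alx4* thus sat within the range of the called factors, from −0.64 to −1.32. *Six2*, *Foxc2* and *Ebf1* lost their calls without control replicate 2 (adjusted p = 0.0725, 0.307 and 0.195 by limma), and *Nr2f1*, *Foxc1* and *Foxc2* without ca-*Acvr1(A11)* replicate 1 (0.474, 0.0862 and 0.409). *Foxc2* kept its call in 10 of 17 alternatives, losing it also with either other pseudocount, a filter at 10 CPM, DESeq2 or without the genes whose values are not whole reads. DESeq2 called 6 of the 29, all lower.

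By level, *Alx1* was number 8 of 62 tested factors of the ALX, paired-related, frontonasal and jaw lists, ordered by mean CPM over the 4 libraries, and *Alx4* number 18. Next above *Alx1* (185 CPM) stood *Otx2* (193 CPM) and next below *Pou3f3* (177 CPM), a POU factor at a log2 difference of 0.03 (adjusted p = 0.976 by limma). Next above *Alx4* (65.9 CPM) stood *Dlx2* (76.4 CPM; 0.16, adjusted p = 0.846 by limma). These neighbours by level were therefore called higher or not called, while *Alx1* and *Alx4* fell.

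Genes whose loss or change causes a midfacial cleft or a defect of the midface in mouse or human formed a further list. Of the 41 names on this list 39 were tested, of which 6 fell and 3 rose by limma. The shares over all genes tested were 0.594% lower and 0.305% higher. The median log2 fold change was −0.14 against 0.03 over all genes tested. *Fuz* is not listed, nor is *Raldh2* under that name. *Raldh2* is an older name of *Aldh1a2*, which is also on the list and was tested and not called, so this gene was entered under both names. Those that fell were *Pax3*, *Six2*, *Gsc*, *Twist1* (−0.78, adjusted p = 0.0412 by limma), *Pdgfra*, the platelet-derived growth factor receptor of the mesenchyme (−2.60, adjusted p = 6.81e-09 by limma), and *Shh*, the hedgehog ligand of the facial ectoderm and forebrain (−0.87, adjusted p = 0.0384 by limma). The values of *Pdgfra* and *Shh* are among those that are not whole reads, and without such genes the list had 4 lower of 33 tested. Among those that rose were *Aldh1a3*, a retinoic acid synthesis enzyme of the nasal epithelium (0.95, adjusted p = 0.00627 by limma), and *Sp8*, a zinc finger factor of the nasal ectoderm (0.90, adjusted p = 0.0195 by limma). The most abundant gene of the list, *Ctnnb1*, stood at −0.02 on the log2 scale (adjusted p = 0.987 by limma). DESeq2 called 3 of the list lower and 0 higher.

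Within this list *Twist1* rests on control replicate 2, without which its log2 fold change was −0.35 (adjusted p = 0.687 by limma). *Shh* lost its call without control replicate 1 (adjusted p = 0.0706 by limma) or ca-*Acvr1(A11)* replicate 2 (0.481), *Aldh1a3* without ca-*Acvr1(A11)* replicate 1 (0.168), and *Sp8* without any of control replicate 2 (0.0727), ca-*Acvr1(A11)* replicate 1 (0.130) or ca-*Acvr1(A11)* replicate 2 (0.0753). *Twist1* and *Shh* also lost their calls with a pseudocount of 0.1 (adjusted p = 0.0875 and 0.0554 by limma) or a filter at 10 CPM (0.0953 and 0.0598). *Alx1* and *Alx4* kept their calls whichever library was left out.

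Factors of the arch mesenchyme that forms the jaws moved in both directions. Of 21, 17 were tested, and 2 fell and 1 rose by limma, against 0.594% and 0.305% of all genes tested. The median log2 fold change was 0.08, and −0.01 without control replicate 1, where more were called lower. *Tbx15* was at 16.4 and 16.0 CPM in the controls against 3.32 and 3.74 CPM in ca-*Acvr1(A11)* libraries (−1.92, adjusted p = 0.00207 by limma), *Barx1* at 3.58 and 10.2 CPM in the controls against 1.25 and 0.468 CPM in mutant libraries (−1.98, adjusted p = 0.0478 by limma), and *Pitx1* rose as given above. *Ednra*, the endothelin receptor gene of the arches, was not called (−0.88, adjusted p = 0.169 by limma). *Dlx4*, *Hand1*, *Hand2* and *Osr1* are not listed. DESeq2 called 0 of the 17. The call of *Barx1* was lost without control replicate 2 (adjusted p = 0.657 by limma) or ca-*Acvr1(A11)* replicate 2 (0.182), and also with a pseudocount of 0.1 (0.0985), with limma-voom (0.151) and without the genes whose values are not whole reads (0.0509).

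Since the transgene activates a BMP receptor, genes that respond to BMP were listed beside ALX. All 16 were tested and 0 were called in either direction by limma or by DESeq2, while 10 had an unadjusted p under 0.05 by limma, 7 of them lower and 3 higher, against 4.12% and 5.42% of all genes tested. The 0 calls rest on the full set of libraries. By limma, lower calls appeared without control replicate 1 or ca-*Acvr1(A11)* replicate 2, and a higher call without control replicate 2. With the replicate number as a block 1 was called lower, where 229 of all genes tested were called. By edgeR with TMM scaling 1 was called lower, where 149 genes were called. The median log2 fold change of the 16 was −0.40, with −0.55 without control replicate 1 and −0.09 without control replicate 2. The most abundant, the inhibitor of DNA binding gene *Id2*, was at 406 and 714 CPM in the controls against 323 and 407 CPM in ca-*Acvr1(A11)* libraries (−0.57, adjusted p = 0.187 by limma; from −0.98 to −0.16 over 17 alternatives, of which 4 called it), and the inhibitory Smad gene *Smad7* was at 41.9 and 55.9 CPM in the controls against 32.0 and 34.2 CPM in mutant libraries (−0.54, adjusted p = 0.335 by limma). *Id4* was at 147 and 182 CPM in the controls against 238 and 215 CPM in mutant libraries (0.46, adjusted p = 0.192 by limma), and *Gata2* at 36.3 and 43.9 CPM in the controls against 21.2 and 28.1 CPM in mutant libraries (−0.69, adjusted p = 0.202 by limma).

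The fold changes of *Alx1* and *Alx4* were called in each of 17 alternative settings, 13 of which changed the pseudocount, the filter, the scaling or the test and 4 of which left out a library. *Alx1* ran from −1.19 to −1.10 over the former and from −1.35 to −0.91 over the latter, the smallest without control replicate 2, the library in which it was highest. *Alx4* ran from −0.99 to −0.88 over the former and from −1.04 to −0.84 over the latter. DESeq2 called the fewest genes of the 17: of the 40 genes called by limma that meet the rule for named genes, *Alx1* and *Alx4* included, it called 16.

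**Figure D5:**
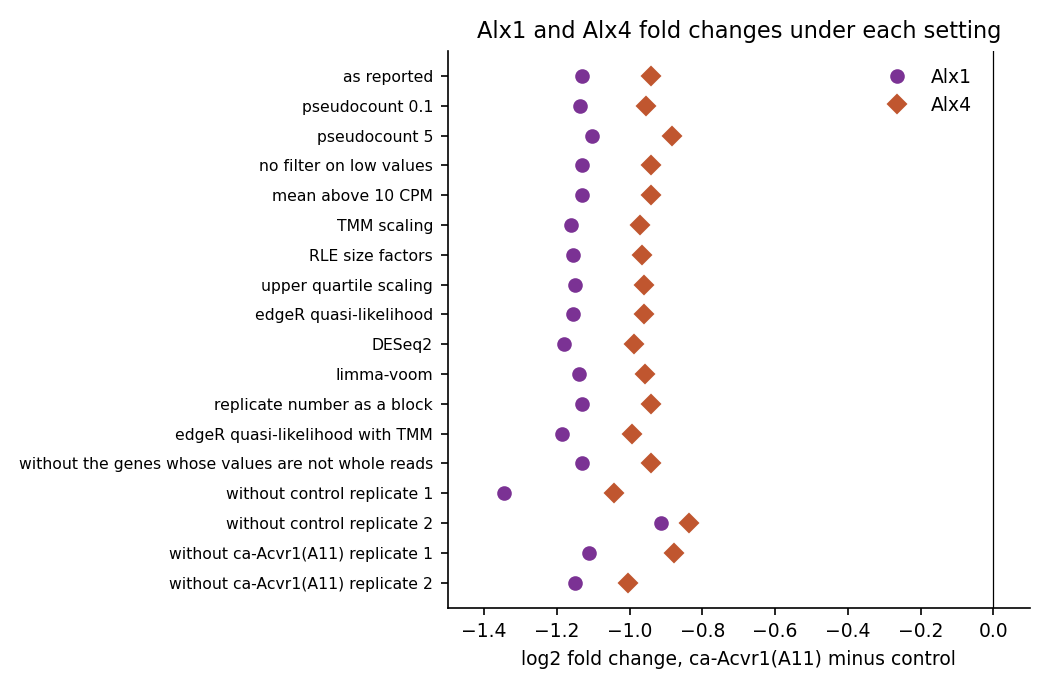
Log2 fold change (ca-*Acvr1(A11)* minus control) of *Alx1* (circles) and *Alx4* (diamonds) as reported and under 17 alternative settings; filled symbols have an adjusted p under 0.05. Every symbol is filled and every value is negative.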

How the data were processed

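The authors deposited CPM values, scaled to library totals, for 13577 genes in 4 libraries; the submitters' processing notes name STAR, featureCounts 1.6.4, DESeq2 and mm10. Whole reads were recovered from the CPM steps: 99.9% of values were whole within a tolerance of 0.02 reads, the values of *Alx1* and *Alx4* among them, and 43 values of 22 genes were not. 1 read equals 0.415 to 0.511 CPM, which limits the precision of low genes. limma 3.58.1 in R 4.3.3 was fitted with a mean-variance trend on log2(CPM + 1) for the 12462 genes whose mean exceeded 1 CPM, p-values were adjusted over all of them (Benjamini-Hochberg), and the threshold was 0.05. Calling a gene higher or lower means passing this threshold. The scripts were tested on simulated data. Alternatives used edgeR 4.0.16, DESeq2 1.42.0 and limma-voom on the recovered reads, other pseudocounts, filters and scalings, and each library left out. With a library left out, the lone library of its group is assumed to vary like the others.

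Sums and ratios were compared with an exact permutation test in scipy 1.17.1. The homeobox of *Alx1* was located with Biopython 1.88 in GENCODE M21 transcripts (GRCm38), in which 99.3% of the symbols listed were found. Figures were drawn with matplotlib 3.10.9, with Python 3.11.15, numpy 2.4.6 and pandas 2.3.3. The genes named in the text are *Alx1*, *Alx4* and *Acvr1*, the called members, the 4 smallest p and the most abundant member of each gene list, the called and most abundant members of each marker list, the 5 nearest profiles of *Alx1* and *Alx4*, their 2 nearest protein-coding genes on each side, and the listed factors next to them in level. *Ext2*, *Gm17028*, *Pax7*, *Aldh1a2*, *Gap43*, *Sox10*, *Foxd3*, *Hbb-bh1* and the markers named as not listed were added outside this rule. Some genes and sequences that the design covers are not reported here; counts over gene lists are of the full lists. The members and lists were chosen with earlier results of these data known.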

Additional observations from a re-analysis of the deposited data

How the results depend on the processing

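*Alx1* and *Alx4* kept their direction and their call in each of 17 alternatives, 2 of which (edgeR's quasi-likelihood test with TMM scaling, and the fit without the genes whose values are not whole reads) were chosen after seeing the data. Adjusted p ran up to 8.11e-04 by limma for *Alx1* and up to 0.0336 by DESeq2 for *Alx4*. The summed level of *Alx1* and *Alx4* kept its direction in the 3 other settings tried (−1.12 to −0.73 on the log2 scale) and ran from −1.28 to −0.90 with each library left out. The log2 ratio of *Alx4* to *Alx1*, in which a scaling factor cancels, was 0.07 to 0.29 with each library left out.

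The number of genes called, 112 by limma, was 39 with DESeq2 and ran from 93 to 465 with each library left out, the 465 without control replicate 1; the cause was not tested. The share of lower calls, 66.1%, was 71.5% with TMM scaling, 79.5% with DESeq2, 57.6% with the replicate block, 48.4% without control replicate 1 and 47.4% without control replicate 2. With the replicate block, the replicate number as a block in the limma fit, 229 genes were called and the log2 fold changes stayed at −1.13 for *Alx1* (adjusted p = 7.42e-11) and −0.94 for *Alx4* (adjusted p = 3.81e-05). Same-numbered libraries deviated together only weakly (r = 0.119 over 8354 genes, which are not independent replicates), with 2 pairs, so the numbers were not taken to pair the libraries. Of the 40 called genes that meet the rule for named genes, 24 lost the call with DESeq2, 18 without ca-*Acvr1(A11)* replicate 1, 17 without control replicate 2, 10 without ca-*Acvr1(A11)* replicate 2, 2 without control replicate 1, 7 with a pseudocount of 0.1, 2 with a pseudocount of 5, 6 with a filter at 10 CPM, 3 with limma-voom and 3 without the genes whose values are not whole reads.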
